A study of Mus musculus with 12 samples.

Results

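The 7 genes described here, each with little history in mammary biology, are Nat1, Crym, Ly6d, Mmd2, Pacc1, Capsl and 2210407C18Rik. They were chosen by measured values of these same arrays, for a higher signal in progesterone receptor null glands or a large change over time there, and all 13 probe sets annotated to them were taken. All 7 listed genes were found among the 18193 genes named by a single symbol on the array. The genotype differences and the change over time in null glands are therefore given as descriptions with no test. The change over time in wild type glands did not itself enter the choice. It is tested here for the genes whose wild type pools pass the filter on low values. The wild type arrays did enter the genotype differences, so these tests are not independent of the choice.

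The samples were pools of mammary gland from 10-week-old female BALB/c mice, 3 mice to a pool and 3 pools to a group. Every mouse, in all 4 groups, had been ovariectomized and had received 17β-estradiol (100 ng) under the skin for 24 h before 17β-estradiol was given together with progesterone (2.5 ug). The groups were progesterone receptor null glands at 8 h of the combined treatment, wild type glands at 8 h, null glands at 24 h and wild type glands at 24 h. No group without progesterone was analysed here, so an acute response and a lasting difference between genotypes cannot be told apart, and the time of estradiol exposure grows with the time of progesterone. RNA came from whole glands, in which fewer cells of a type and less RNA per cell cannot be told apart.

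Progesterone acts in the gland through its nuclear receptor, a ligand-activated transcription factor present in a fraction of luminal epithelial cells, and those cells signal to their neighbours through secreted factors. The 7 genes encode proteins of unrelated kinds. Nat1 encodes an arylamine N-acetyltransferase, which moves an acetyl group from acetyl coenzyme A to aromatic amines. Crym encodes mu-crystallin, an NADPH-dependent thyroid hormone binding protein and ketimine reductase. Ly6d encodes a small surface protein held by a lipid anchor, known from keratinocytes and early B lineage cells. Mmd2 encodes a member of the progestin and adipoQ receptor (PAQR) family of membrane proteins, other members of which bind progestins or adiponectin. Pacc1, formerly Tmem206, encodes the proton-activated chloride channel, and Capsl encodes calcyphosine-like, a protein related to the calcium-binding calcyphosine. 2210407C18Rik carries only a clone name.

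Values are log2 signals, and the median of an array lay between 5.84 and 5.91. The probe set with the highest mean over the 12 arrays represents a gene. The probe set representing Pgr, the targeted gene, averaged 8.89 ± 0.29 in null glands and 9.94 ± 0.06 in wild type glands at 8 h, and 7.46 ± 0.35 in null glands and 7.82 ± 0.29 in wild type glands at 24 h (SD, n = 3 pools each), so the null arrays kept a signal at this probe set. All 12 luminal epithelial markers named on the array passed the filter on low values, as did all 9 basal markers. Arrays of the same group correlated at r between 0.96 and 0.99 over the tested probe sets. The filter kept 23709 probe sets, those above the median of an array on 3 or more arrays, and these represent 12002 genes. Of the 13 probe sets of the 7 genes, 9 passed, and at least 1 passed for each gene.

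**Figure D1:**
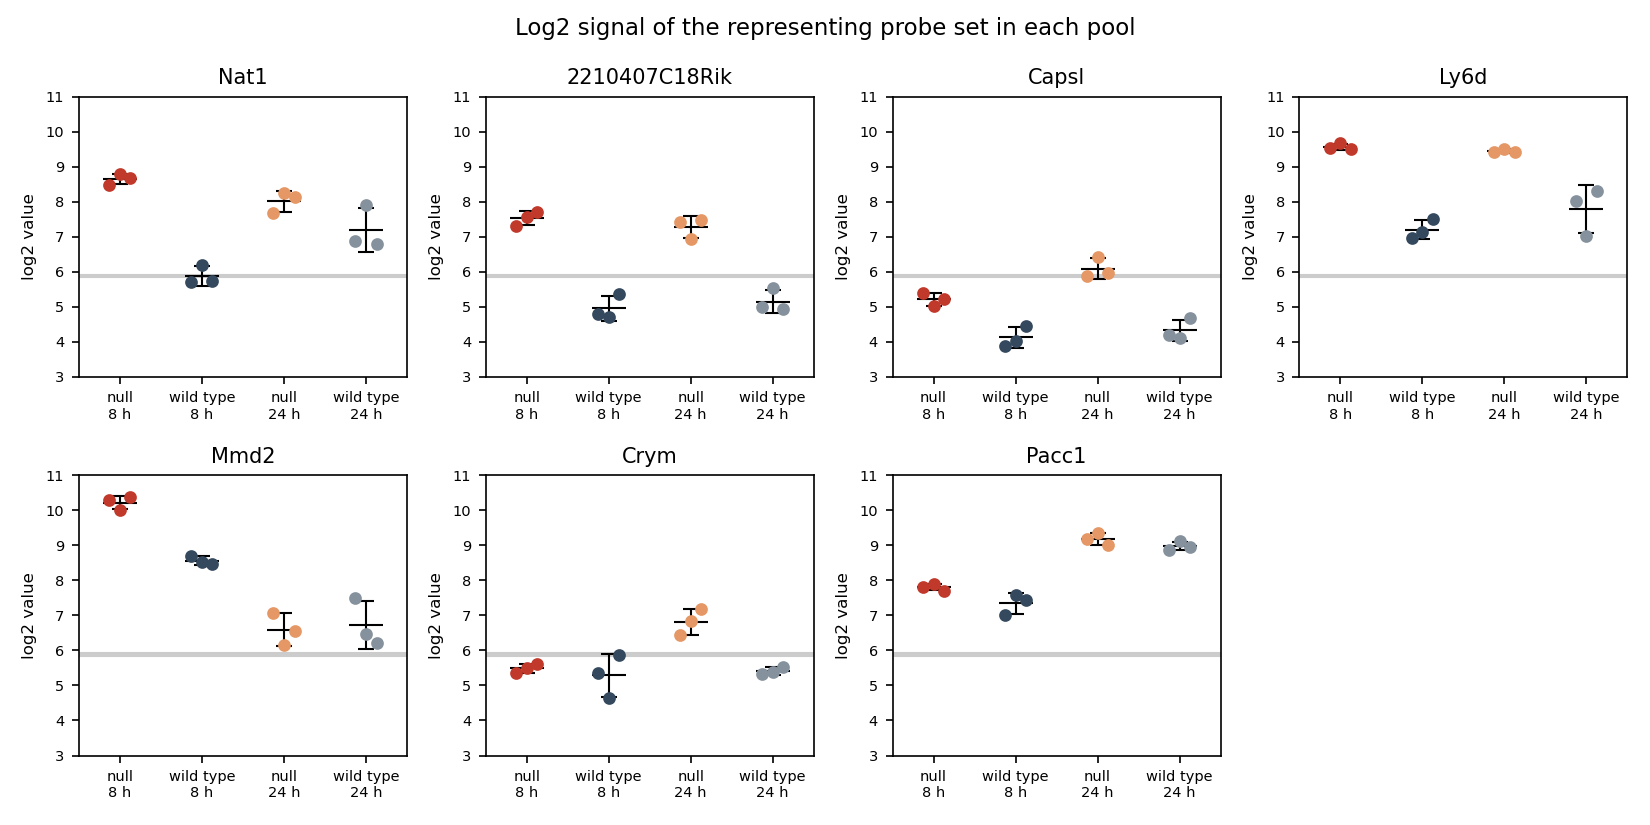
Log2 signal of the representing probe set of each gene (y axis) in the 3 pools of each of the 4 groups (x axis). Dots are pools, bars are the group mean ± SD, and the grey band is the range of the array medians. Nat1, Ly6d and 2210407C18Rik are high in both null groups, Mmd2 is highest in null glands at 8 h, Crym stands out in null glands at 24 h only, and Pacc1 is higher at 24 h in both genotypes.

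At 8 h, 6 of the 7 genes had every null pool above every wild type pool, and at 24 h 4 of the 7 did. Because the genes were selected on these differences, nothing is read from those counts. Over all tested probe sets, 10.7% had null pools above all wild type pools at 8 h and 5.53% did at 24 h. Called at an adjusted p below 0.05 in limma, 1.54% of the probe sets were higher and 1.54% lower in null glands at 8 h, and 0.232% were higher and 0.873% lower at 24 h. The median difference of the 7 genes, null minus wild type, was 1.66 log2 units at 8 h and 1.41 at 24 h. Over all tested probe sets it was -0.02 at each time. The choice of the genes favours that gap and the ranks given below, so nothing is read from either.

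Nat1 was high in null glands at both times. At 8 h its log2 signal was 8.48, 8.78 and 8.68 in the null pools, against 5.70, 6.20 and 5.75 in the wild type pools. At 24 h it was 7.67, 8.24 and 8.12 in the null pools, against 6.87, 7.90 and 6.79 in the wild type pools. The wild type pools at 8 h lay near the array median, and at 24 h wild type pool 2 lay above the lowest null pool, so the groups overlapped only then. The mean was 8.65 ± 0.15 in null glands and 5.88 ± 0.28 in wild type glands at 8 h, a difference of 2.76 log2 units (SE 0.26), or 6.79-fold. At 24 h the difference was 0.82 log2 units, or 1.77-fold. The 8 h difference ranked 9 from the top among the 12002 genes.

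In wild type glands, the contrast that was tested, Nat1 rose between the times. The wild type 8 h pools are the baseline of this contrast, and they also enter the 8 h genotype difference Nat1 was chosen on. A low wild type mean at 8 h favours both, so the p of the rise is not independent of the choice. Nat1 lay above the array median in 4 wild type pools, of which only pool 2 was at 8 h. Its log2 signal was 7.19 ± 0.62 at 24 h and 5.88 ± 0.28 at 8 h (SD, n = 3 pools each), a rise of 1.31 log2 units (SE 0.26) or 2.48-fold, with an adjusted p of 0.0189 in limma over all probe sets. The call was lost in a fit of the wild type arrays alone (adjusted p = 0.0696), and without wild type 8 h pool 1 (adjusted p = 0.0899) or pool 3 (adjusted p = 0.0553). In null glands the mean was 8.01 ± 0.30 at 24 h and 8.65 ± 0.15 at 8 h, a difference of -0.64 log2 units given with no test.

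Crym separated the genotypes at 24 h only. At 8 h its log2 signal was 5.36, 5.51 and 5.60 in the null pools, against 5.36, 4.64 and 5.86 in the wild type pools. At 24 h it was 6.43, 6.85 and 7.18 in the null pools, against 5.32, 5.39 and 5.52 in the wild type pools. The null 24 h pools stood above all others, while the genotypes overlapped at 8 h. The difference was 0.20 log2 units (SE 0.27) at 8 h and 1.41 log2 units, or 2.65-fold, at 24 h, or 0.93 with values raised to a floor at the array median. The null mean was 6.82 ± 0.38 at 24 h and 5.49 ± 0.12 at 8 h, 2.51-fold apart, given with no test. Wild type glands were at 5.41 ± 0.10 at 24 h and 5.29 ± 0.61 at 8 h (a difference of 0.12). Crym lay above the array median in the 3 null pools at 24 h and in 1 of the 6 wild type pools, so it passed the filter through null glands and no test is given for wild type glands.

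Ly6d stayed high in null glands at both times. At 8 h its log2 signal was 9.52, 9.66 and 9.49 in the null pools, against 6.97, 7.14 and 7.50 in the wild type pools. At 24 h it was 9.41, 9.50 and 9.43 in the null pools, against 8.03, 7.03 and 8.31 in the wild type pools. The genotypes did not overlap at either time, and the null pools lay closer together than the wild type pools. The difference was 2.36 log2 units (SE 0.26), or 5.12-fold, at 8 h and 1.66 log2 units, or 3.16-fold, at 24 h, ranks 15 and 10. In wild type glands the mean was 7.79 ± 0.68 at 24 h and 7.20 ± 0.27 at 8 h, and the 0.59 difference did not pass the test in limma (adjusted p = 0.212). Without wild type 24 h pool 2, the lowest of its group, the difference was 0.97 and passed (adjusted p = 0.00964).

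Ly6d is also expressed by keratinocytes, so markers of keratinized epidermis are given beside it. Of 13 such markers on the array, 6 passed the filter. The mean log2 level over all 13 ran from 4.70 to 5.94 over the null pools and from 4.67 to 7.03 over the wild type pools at 8 h, and from 4.74 to 5.37 over the null pools and from 5.42 to 8.59 over the wild type pools at 24 h. At the gene level, 0 of the 6 were called by genotype at either time in limma, and their median difference, null minus wild type, was 0.91 log2 units at 8 h and -2.09 at 24 h. For B and plasma cell markers, 8 of 9 passed, and the mean level over all 9 ran from 7.06 to 8.19 in null pools and from 6.28 to 7.69 in wild type pools at 8 h, and from 7.27 to 9.73 in null pools and from 7.72 to 8.76 in wild type pools at 24 h. By genotype, 2 of these 8 were called higher in null glands at 8 h and 1 at 24 h, and 0 were called lower at either time. Igha was higher by 2.90 log2 units at 8 h (adjusted p = 0.000551 in limma) and by 2.04 at 24 h (adjusted p = 0.00931). Jchain was higher by 2.83 at 8 h (adjusted p = 0.0124). The median difference of the 8 was -0.12 at 8 h and 0.12 at 24 h. The part of either list in the Ly6d differences was not tested.

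Levels of other gland components are given in the same way. Brown adipocyte markers had a mean log2 level from 9.72 to 10.55 in null pools and from 8.67 to 9.48 in wild type pools at 8 h, and from 9.63 to 10.57 in null pools and from 8.88 to 10.10 in wild type pools at 24 h. Skeletal muscle markers ran from 6.35 to 10.57 in null pools and from 10.20 to 11.71 in wild type pools at 8 h, and from 8.71 to 10.59 in null pools and from 9.85 to 12.52 in wild type pools at 24 h. Luminal markers had a mean from 9.32 to 9.52 in null pools and from 9.16 to 9.30 in wild type pools at 8 h, and from 8.96 to 9.23 in null pools and from 9.36 to 9.66 in wild type pools at 24 h. By genotype, brown adipocyte markers had 3 of 8 called higher in null glands at 8 h and 0 at 24 h, luminal markers 3 of 12 higher at 8 h and 4 of 12 lower at 24 h, and skeletal muscle markers 0 of 12 at either time in limma. Basal markers had a mean from 8.71 to 9.27 in null pools and from 8.50 to 9.25 in wild type pools at 8 h. At 24 h they ran from 8.06 to 8.31 in null pools and from 8.64 to 9.38 in wild type pools. Of the 9 basal markers, 0 were called at 8 h and 1 was lower in null glands at 24 h. Endothelial markers had 1 of 8 lower at 8 h and 0 called at 24 h, and white adipocyte, T cell and macrophage markers 0 at either time. The part of all these lists in the values of the 7 genes was not tested.

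Mmd2 was high in null glands at 8 h and low in both genotypes at 24 h. At 8 h its log2 signal was 10.28, 10.00 and 10.38 in the null pools, against 8.70, 8.51 and 8.48 in the wild type pools. At 24 h it was 7.08, 6.14 and 6.54 in the null pools, against 7.51, 6.46 and 6.22 in the wild type pools. The 8 h groups were 1.66 log2 units apart (SE 0.30), or 3.15-fold, with no overlap, and the 24 h groups overlapped with a difference of -0.14. The null mean was 6.59 ± 0.47 at 24 h and 10.22 ± 0.20 at 8 h, a 12.4-fold gap that ranked 3 from the bottom among the 12002 genes and is given with no test.

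In wild type glands Mmd2 fell between the times. Its mean was 6.73 ± 0.69 at 24 h and 8.57 ± 0.12 at 8 h (SD, n = 3 pools each), a difference of -1.84 log2 units (SE 0.30) or 3.57-fold, with an adjusted p of 0.00831 in limma. The call was kept in every alternative that was run, with adjusted p between 0.00251 and 0.0471. Mmd2 has 3 probe sets. The other tested one, 1424534_at, followed the representing one, 1438654_x_at, at r = 0.995 over the 12 arrays and fell by 1.80 log2 units in wild type glands (adjusted p = 0.00512 in limma). The last, 1444572_at, lay below the array median on all 12 arrays and correlated at r = 0.57. In null glands, 24 h minus 8 h was -3.25 log2 units for 1424534_at and -0.13 for 1444572_at.

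Pacc1 was higher at 24 h than at 8 h in both genotypes. At 8 h its log2 signal was 7.82, 7.90 and 7.71 in the null pools, against 7.01, 7.57 and 7.44 in the wild type pools. At 24 h it was 9.19, 9.34 and 9.00 in the null pools, against 8.88, 9.12 and 8.95 in the wild type pools. The genotypes were 0.47 log2 units apart (SE 0.14), or 1.38-fold, at 8 h without overlap, and 0.19 at 24 h with overlap. In wild type glands the mean was 8.98 ± 0.12 at 24 h and 7.34 ± 0.29 at 8 h, a rise of 1.64 log2 units (SE 0.14) or 3.12-fold, with an adjusted p of 0.000269 in limma (n = 3 pools each). That call was kept in all alternatives run, with adjusted p between 0.000150 and 0.00640. In null glands the mean was 9.18 ± 0.17 at 24 h and 7.81 ± 0.10 at 8 h, 2.58-fold apart, with no test.

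The 5 probe sets of Pacc1 did not move together. The representing one, 1438082_at, averaged 8.33 log2 units over the 12 arrays, and the other 4 averaged between 3.71 and 5.74. Of those, 1448552_s_at passed the filter and changed by 0.17 log2 units in wild type glands, which did not pass the test in limma (adjusted p = 0.565). The remaining 3 lay below the array median on every array and differed by 0.00, 0.19 and 0.28 log2 units over time in wild type glands. Their correlations with the representing probe set ran from r = 0.15 to r = 0.81. In the platform annotation, 3 of the 5 carry a RefSeq transcript of the gene and the representing one does not, so the rise of Pacc1 in wild type glands rests on 1 probe set whose link to the transcript was not tested. Among the other genes, 0 of the 3 probe sets of Mmd2 carry one. The single probe sets of 2210407C18Rik and Capsl do not either, and their links were likewise not tested.

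**Figure D2:**
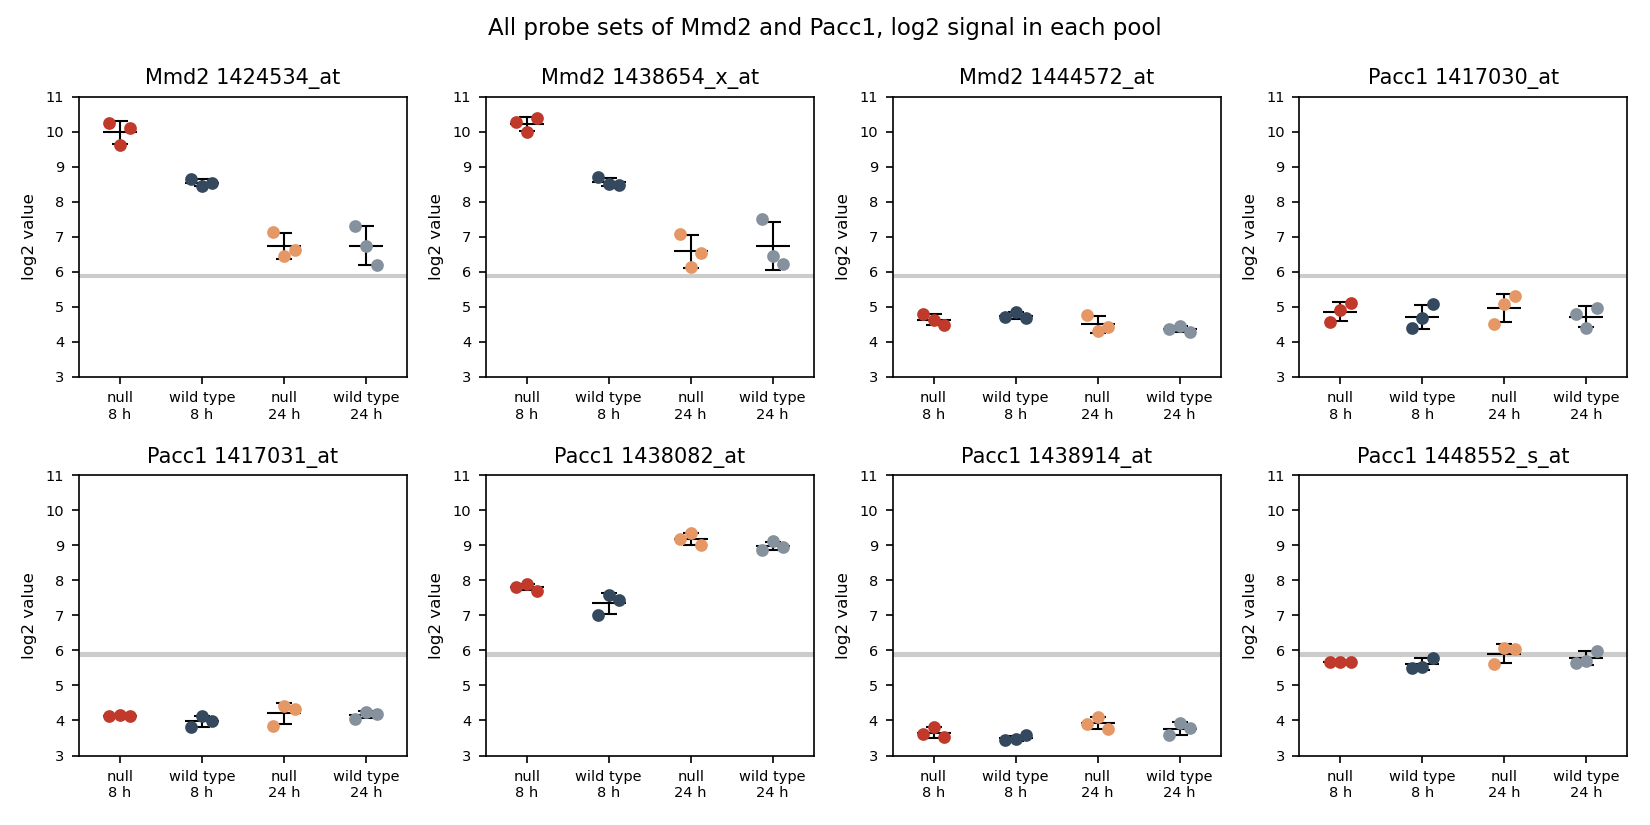
Log2 signal (y axis) of the 3 probe sets of Mmd2 and the 5 of Pacc1 in the pools of each group (x axis), with the group mean ± SD and the range of the array medians as a grey band. The Mmd2 probe sets 1424534_at and 1438654_x_at share 1 course, while of the Pacc1 probe sets 1438082_at alone lies above the array medians on every array.

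Capsl was higher in null glands at both times, on a low signal. Its log2 signal at 8 h was 5.39, 5.01 and 5.23 in the null pools, against 3.89, 4.02 and 4.46 in the wild type pools. Its signal at 24 h was 5.88, 6.43 and 5.96 in the null pools, against 4.19, 4.11 and 4.68 in the wild type pools. The genotypes did not overlap at either time, with differences of 1.09 log2 units (SE 0.22), or 2.13-fold, at 8 h and 1.76 log2 units, or 3.39-fold, at 24 h. Only the 3 null pools at 24 h lay above the array median, and with values raised to a floor at the array median the difference was -0.01 at 8 h and 0.20 at 24 h. The null mean was 6.09 ± 0.30 at 24 h and 5.21 ± 0.19 at 8 h, 1.84-fold apart, or 0.24 log2 units with that floor, with no test. Wild type glands differed by 0.21 log2 units between the times, below the array median throughout, and no test is given because Capsl passed the filter through null pools alone. Capsl is listed among genes of motile cilia in other tissues, and none of the 6 markers of motile cilia cells on the array, Foxj1 included, passed the filter. Their mean log2 level ran from 4.45 to 4.69 over the null pools and from 4.37 to 4.56 over the wild type pools. Of a wider list of motile cilium genes, 5 others passed the filter, and 0 were called by genotype at either time in limma. Without overlap at either time, Ropn1l was higher in null glands (0.50 and 0.28 log2 units) and Dnaic1 lower (-0.47 and -0.73). Mlf1 was lower without overlap at 24 h only (-2.04), and the rest overlapped at both times.

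2210407C18Rik separated the genotypes at both times. The log2 signal at 8 h was 7.30, 7.57 and 7.71 in the null pools, against 4.80, 4.71 and 5.37 in the wild type pools. The signal at 24 h was 7.43, 6.93 and 7.47 in the null pools, against 4.99, 5.52 and 4.93 in the wild type pools. All 6 null pools lay above the array median and all 6 wild type pools below it. The difference was 2.57 log2 units (SE 0.22), or 5.94-fold, at 8 h and 2.13 log2 units, or 4.38-fold, at 24 h. With values raised to a floor at the array median, it was 1.67 and 1.39. Wild type glands differed by 0.18 log2 units between the times and null glands by -0.25, both with no test, since the gene passed the filter through null pools alone.

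The promoters of the genes that separated the genotypes at both times, and have one in the RefSeq promoter table, are shown because the targeted gene encodes a DNA-binding receptor. Each runs from 250 bases before to 50 after the start site, 5′ to 3′ on the gene's strand in build GRCm38.p6. The 2210407C18Rik promoter lies at chr11:58613443-58613742 on the minus strand and the Capsl promoter at chr15:9435778-9436077 on the plus strand. Capitals mark TATAAA in the first and ACANNNTGT, the core shared by sites of the progesterone, glucocorticoid and androgen receptors, in the second.
2210407C18Rik: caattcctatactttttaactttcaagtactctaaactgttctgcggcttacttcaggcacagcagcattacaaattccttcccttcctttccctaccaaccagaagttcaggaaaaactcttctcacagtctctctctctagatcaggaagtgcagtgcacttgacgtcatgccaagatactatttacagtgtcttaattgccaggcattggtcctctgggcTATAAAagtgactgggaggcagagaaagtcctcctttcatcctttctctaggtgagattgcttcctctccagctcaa
Capsl: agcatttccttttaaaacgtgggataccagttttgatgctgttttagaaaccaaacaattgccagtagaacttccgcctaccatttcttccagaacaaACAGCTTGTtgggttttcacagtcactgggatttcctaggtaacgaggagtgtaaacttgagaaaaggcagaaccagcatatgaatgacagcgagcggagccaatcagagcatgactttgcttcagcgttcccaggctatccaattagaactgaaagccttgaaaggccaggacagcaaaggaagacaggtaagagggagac
Both strands were searched. TATAAA starts at base -27 of 2210407C18Rik, and 13.6% of all 32851 promoters hold that motif. The ACANNNTGT match of Capsl starts at base -152, and 6.85% of all promoters hold that motif. Of the 4 promoters found among the 7 genes, 1 held ACANNNTGT, 2 held TATAAA, and 0 held TGANTCA (7.81% of all promoters) or the estrogen response element core (0.07%). A match describes the letters of this window and no binding was measured.

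**Figure D3:**
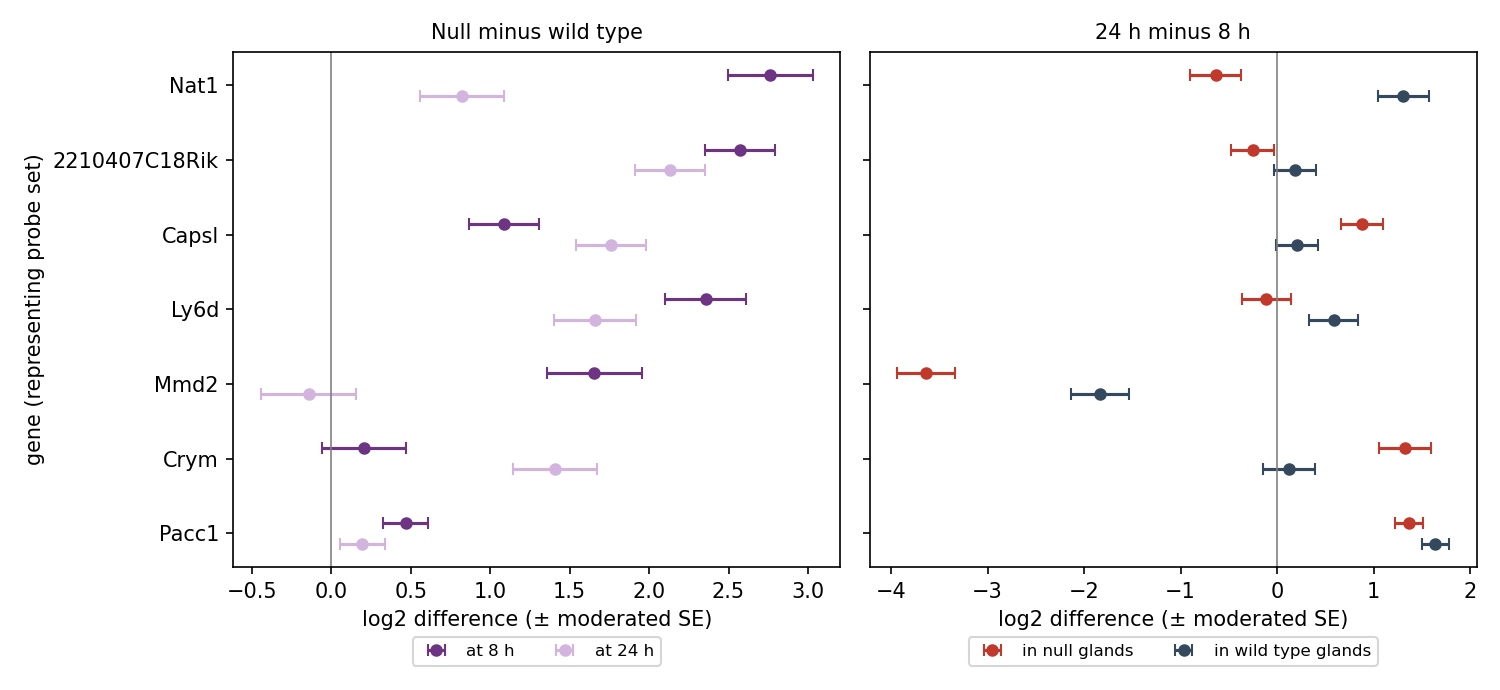
Differences of the log2 signal with their moderated SE (x axis) for the representing probe set of each gene (y axis), as null minus wild type at 8 h and 24 h on the left and 24 h minus 8 h in null and wild type glands on the right. Mmd2 has the largest change over time, -3.63 in null glands and -1.84 in wild type glands, and Nat1 lies on opposite sides of 0 in the genotypes.

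Of the 7 genes, 4 would pass the filter on wild type arrays alone. Over time in wild type glands 2 of these rose, Nat1 and Pacc1, the latter on 1 of its 5 probe sets. Among the rest, 1 fell (Mmd2) and 1 did not pass the test (Ly6d). The other 3 (Capsl, Crym and 2210407C18Rik) passed through null pools and are not counted. Nat1 would pass on its wild type pools at 24 h, where it is higher, and not on those at 8 h. The wild type arrays entered the genotype differences the genes were chosen on, so nothing is read from these counts. Over all tested probe sets, 1.53% rose and 3.69% fell over time in wild type glands. In null glands, 0.814% of the probe sets rose and 3.59% fell, and the 7 genes were chosen in part on that change. Over both directions 1044 probe sets were called in null glands, against 566 with the null arrays alone and the pool number as a block. The comparisons share arrays, so their values stand side by side and no overlap between them is given.

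The 7 genes varied together to different degrees. Among the 21 pairs, r over the 12 arrays ran from -0.79 for Mmd2 with Pacc1 to 0.91 for 2210407C18Rik with Ly6d, with a median of 0.50. After the group means were removed the median was -0.05. The pairs then ran from -0.72 for Nat1 with Ly6d to 0.58 for Capsl with Ly6d. The median likeness was thus not kept within groups, while single pairs differed. These correlations are over the same arrays that chose the genes and are descriptions.

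**Figure D4:**
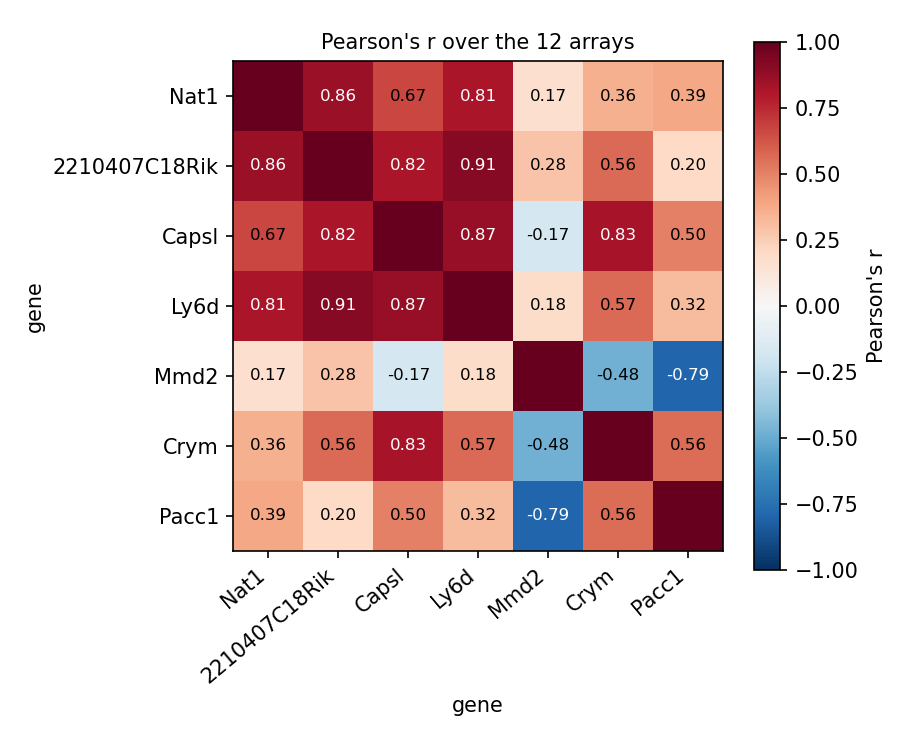
Pearson's r of the log2 signal between each pair of the 7 genes over the 12 arrays (rows and columns are genes, colour is r). Nat1, 2210407C18Rik, Capsl and Ly6d form a block of r from 0.67 to 0.91, and Mmd2 has negative r with Capsl, Crym and Pacc1.

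Genes with the most similar course over the 12 arrays were sought among 1847 candidates with a range of at least 1 log2 unit. Nat1 was closest to Rps6, a ribosomal protein (r = 0.95), Zhx2, a zinc finger and homeobox transcription factor (r = 0.93), and Mtmr7, a myotubularin-related phosphatase (r = 0.92). 2210407C18Rik was closest to Cfap300, a cilium assembly protein (r = 0.97), whose gene lies on chromosome 9 with 2 protein-coding genes between it and Pgr. Ly6d was closest to Slc12a2, the sodium-potassium-chloride cotransporter (r = 0.95). Capsl was closest to Tspan1, a tetraspanin (r = 0.97), and to Ido1, which starts tryptophan breakdown (r = 0.94). Mmd2 was closest to Tmem86a (r = 0.96) and Tgm2, a transglutaminase (r = 0.95), Crym to Tspan1 (r = 0.84), and Pacc1 to Rnf150 (r = 0.95). Mtmr7 was among the 3 closest genes of 3 of the 7. Zhx2 had a null minus wild type difference of 2.41 log2 units at 8 h and 0.78 at 24 h, and Ido1 of 2.99 and 4.95. Such genes were picked on these arrays for likeness to genes chosen on these arrays, so a difference between genotypes follows from the choice. Their r and differences are descriptions with no test.

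Relatives of the 7 genes were followed by lists of arylamine N-acetyltransferases, Ly6/uPAR proteins, PAQR proteins, thyroid hormone handling, chloride channels and motile cilium genes, 55 tested genes in all. At 8 h, 2 of the 55 were higher and 1 was lower in null glands, beside 1.54% higher and 1.54% lower over all tested probe sets. Hr, a thyroid hormone receptor corepressor, was higher by 0.52 log2 units (adjusted p = 0.0435 in limma) and Clcn6, a lysosomal chloride-proton exchanger, by 0.40 (adjusted p = 0.0490). Rxra, a retinoid X receptor, was lower, with a difference of -0.39 (adjusted p = 0.0199). The 3 wild type 24 h pools of Rxra lay within 3.2e-05 log2 units of each other, and 1 probe set of 45101 had a range below 0.001 in that group, as in 2 of the other 3 groups. When each array was left out in turn, the calls were lost in 8 of 12 fits for Hr, 10 of 12 for Clcn6 and 4 of 12 for Rxra, and over all alternatives the highest adjusted p was 0.177, 0.159 and 0.109. Over all 21 alternatives, the replicate block among them for Clcn6 (adjusted p = 0.0515), the call was lost in 10 for Hr, 17 for Clcn6 and 4 for Rxra. At 24 h 0 of the 55 were called in limma (lowest adjusted p = 0.0891), beside 0.232% higher and 0.873% lower over all tested probe sets.

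Over time in wild type glands 1 of the 55 rose and 2 fell, beside 1.53% and 3.69% over all tested probe sets. Psca, a Ly6 family surface protein, rose by 0.45 log2 units (adjusted p = 0.0447 in limma), while Paqr4 fell by 0.49 (adjusted p = 0.00890) and Clic6, a chloride intracellular channel protein, fell by 0.81 (adjusted p = 0.0187). The call was lost in 10, 1 and 4 of 12 fits with an array left out. In null glands 0 rose and 3 fell, beside 0.814% and 3.59% over all, with differences of -0.66 for Hr (adjusted p = 0.0161), -0.45 for Clcn6 (adjusted p = 0.0279) and -0.39 for Lrrc8c, a volume-regulated anion channel subunit (adjusted p = 0.0499 in limma), lost in 2, 4 and 11 of 12 such fits. These fits ignore the likeness of same-numbered null pools, and with a replicate block the adjusted p in null glands was 0.0120 for Hr, 0.0295 for Clcn6 and 0.0167 for Lrrc8c in limma. Nat2, the only other tested arylamine N-acetyltransferase, differed by 0.21 log2 units at 8 h and was not called (adjusted p = 0.286).

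The nearest protein-coding genes with a tested probe set, up to 3 on each side of each of the 7, gave 42 tested neighbours. By genotype 0 were called in limma at 8 h (lowest adjusted p = 0.0524) and 0 at 24 h (lowest adjusted p = 0.130). Over all tested probe sets, 1.54% were higher and 1.54% lower at 8 h, and 0.232% higher and 0.873% lower at 24 h. Over time 2 of the 42 fell in each genotype, near the 3.59% of all probe sets that fell in null glands and the 3.69% in wild type glands. In wild type glands Ppp2r5a, a phosphatase subunit, fell by 0.32 log2 units (adjusted p = 0.0176 in limma). Lpgat1, an acyltransferase, fell by 0.47 (adjusted p = 0.0427 in limma). Both are among the neighbours of Pacc1, whose representing probe set rose. In null glands Lpgat1 fell by 0.56 (adjusted p = 0.0265) and Tnrc18, among the neighbours of Mmd2, fell by 0.39 (adjusted p = 0.0489 in limma). With each array left out in turn, the calls in wild type glands were lost in 4 of 12 fits for Ppp2r5a and 9 of 12 for Lpgat1, and those in null glands in 4 of 12 for Lpgat1 and 10 of 12 for Tnrc18. With a replicate block, the adjusted p in null glands was 0.0278 for Lpgat1 and 0.0446 for Tnrc18 in limma.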

How the data were processed

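The 12 arrays are Affymetrix expression arrays of mammary gland RNA. The deposited values are 1 table of 45101 probe sets by 12 arrays on a log2 scale, which the authors had normalized between arrays, as judged from the values, since the labels give no scale. Among tools, the submitters' processing notes list MAS5 alone, without saying what it did. How probes were summarized and background removed is not given in the sources used here. Precision is limited by the number of arrays.

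Groups came from the labels. Probe sets were named where the platform annotation gives 1 symbol (34945 of 45037 that are not controls; 932 have several, 9160 none), and looked up in RefSeq, assembly GRCm38.p6. Promoter sequences are RefSeq's, and were found for 4 of the 7 genes. Probe sets above the array median on at least 3 arrays were fitted with limma 3.58.1 in R 4.3.3 (lmFit, eBayes with a trended prior, 4 group means, 12 arrays, no block), with Benjamini-Hochberg adjustment over 23709 probe sets. SE is the moderated standard error. The labels describe the pools as biological replicates, and p-values reflect how these pools vary. The 7 genes and all lists were chosen with earlier results of these data known. Genes named besides the 7 were the called genes of each related list (up to 4 with the largest change), called neighbours, and the 3 genes with the highest r. Pgr, Nat2, Foxj1, Igha, Jchain, Ropn1l, Dnaic1 and Mlf1 were named outside that rule.

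Same-numbered null pools at 8 h and 24 h deviated together (r = 0.52, 0.26 and 0.38), so the numbers may pair time in null glands. The main fit holds no block, so its p-values and shares called for time in null glands ignore such a pairing. A block on the pool number was run as an alternative. Same-numbered wild type pools gave r = 0.45, -0.01 and 0.02 and were not taken as pairs. The fit was tested on simulated data. Alternatives covered the filter, prior, floor, normalization, centring, block, arrays in the fit, 1 probe set per gene and leaving out each array.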

Additional observations from a re-analysis of the deposited data

Results flagged for a closer look

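Nat1 had differences over time of opposite sign in the genotypes. Every null pool at 24 h lay below every null pool at 8 h, and every wild type pool at 24 h lay above every wild type pool at 8 h. The change in null glands minus the change in wild type glands was -1.94 log2 units. This difference between genotypes was not tested, because Nat1 was chosen on the contrasts it is made of.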

How the results depend on the processing

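The time calls of Mmd2 and of the representing probe set of Pacc1 in wild type glands kept their direction in every alternative run. They also kept their side of the threshold. The time calls of Nat1 and Ly6d depended on single pools, as given with their values. With values raised to a floor at the array median, the differences of Capsl, 2210407C18Rik and Crym shrank by construction, to -0.0132 for Capsl at 8 h, since their wild type signals lie mostly below it. With 1 probe set per gene, fewer were tested, and 338 were called by genotype at 8 h, 165 by genotype at 24 h, 648 over time in wild type glands and 572 over time in null glands, against 729, 262, 1238 and 1044 over all probe sets. With a replicate block, 482 were called by genotype at 24 h and 1667 over time in null glands. With the null arrays only and the block, an alternative chosen after seeing the data, 566 were called over that time. Wild type arrays alone gave 500 for time in wild type. Leaving out 1 array gave 320 to 889 for genotype at 8 h (lowest without wild type 8 h pool 1, 366 to 433 without wild type pool 2 or null pool 2 or 3), 126 to 704 at 24 h (126 without wild type pool 3, 149 without pool 1, 155 without null pool 2, 704 without wild type pool 2), 239 to 1328 for time in wild type (239, 486 and 799 without 8 h pools 1, 2 and 3, 702 and 699 without 24 h pools 2 and 3) and 232 to 1202 for time in null glands (413 and 232 without 8 h pools 2 and 3, 315 and 532 without 24 h pools 2 and 3). Of the related genes at 8 h, 3 were called, 1 with no filter, 5 with a replicate block, 1 with 1 probe set per gene and 0 to 4 with an array left out. At 24 h 0 were called, 2 with a replicate block and 0 to 1 with an array left out. The cause of these shifts was not tested. No replicate block changed a member's call.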
